A study of Mus musculus with 48 samples.

Results

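Expression of 9 genes that encode replication-independent histone variants was followed by RNA-Seq in murine striatal cells. They were the rows of the expression table named H1f0, H1fx, H2afj, H2afx, H2afy, H2afz, H2afv, H3f3a and H3f3b, which are 9 of 27281 rows. Of these, 7 carried the symbol alone, and the rows of H3f3a and H3f3b listed 5 symbols each, with the gene itself first and near-identical H3.3 copies after it. RNA of these 2 genes and of the copies may therefore not be told apart. Every one of the 9 genes passed the filter on low values.

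The cells were STHdh lines, progenitors from mouse striatum that are conditionally immortalized and carry the huntingtin gene with a normal (STHdhQ7) or an expanded (STHdhQ111) repeat on both alleles. Each genotype is represented by 1 clonal line, so genotype and clone cannot be told apart. STHdhQ111 cells received vehicle (DMSO) or 1 of 14 compounds, STHdhQ7 cells received vehicle, and all were kept for 24 hours in serum-free medium, with 3 samples per condition and 48 in all. Sodium butyrate (1 mM) and trichostatin A (10 nM) inhibit histone deacetylases. The other compounds were cyproheptadine, loxapine, meclizine, selisistat and DKI (diacylglycerol kinase inhibitor II) at 10 µM, pizotifen at 5 µM, cysteamine at 250 µM, 4-deoxypyridoxine at 4 mM, fingolimod phosphate at 250 nM, nortriptyline at 1 nM, and nicotinamide and haloperidol at 0.5 nM.

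Most histone genes are expressed in S phase, from clustered genes whose messages end in a stem-loop and carry no poly(A) tail. As a rule, replication-independent variants are encoded by single genes and have polyadenylated messages. Most are made through the cell cycle and in cells that no longer divide. The variants replace the canonical histones during transcription, repair and differentiation. Linker histone H1.0 is a classical marker of cells leaving the cycle and a long-known target of butyrate.

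All values were the authors' normalized abundances on a log2 scale, whose depth is unknown, and a difference of 1 unit is a doubling. Levels of Vim (14.79 to 15.70 over the samples) were high, as were those of the collagen gene Col1a1 (13.63 to 15.14). The neuronal genes Rbfox3 and Snap25 and the microglial genes Aif1 and Cx3cr1 were below 0 in every sample, and the striatal neuron gene Ppp1r1b had a median of 1.89. The striatal gene Foxp1 (8.90 to 10.23) and the neuronal gene Map2 (7.72 to 9.06) were expressed in every sample. The progenitor genes differed between the lines, with Nes at 9.93 to 11.66 in STHdhQ7 and 4.46 to 7.14 in STHdhQ111 samples, and Sox2 at 8.41 to 9.34 and 4.38 to 5.92. Ptprc, listed as a microglial marker, had a median of 10.34. Replicate 2 of selisistat and replicate 1 of the STHdhQ7 vehicle stood farthest from their condition means over all genes. Of the 3 STHdhQ111 vehicle samples, replicate 3 had the highest value of every one of the 9 genes, and a call that ends without it is named beside the result.

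The linker histone H1f0 lies at chr15:79028450-79030504 (GRCm38, plus strand), H1fx, which encodes H1.10, at chr6:87980421-87981637 (minus strand), and H2afx, which encodes the damage-signalling H2A.X, at chr9:44334694-44336077 (plus strand). H2A.Z marks active and poised promoters and is encoded by H2afz (H2A.Z.1, chr3:137864487-137866922, plus strand) and H2afv (H2A.Z.2, chr11:6427229-6444443, minus strand). Macro-H2A1, a repressive variant with a large extra domain, comes from H2afy (chr13:56073619-56136361, minus strand), and H2A.J from H2afj (chr6:136808244-136810074, plus strand). The same H3.3 protein is encoded by H3f3a (chr1:180800832-180813943, minus strand) and H3f3b (chr11:116021912-116027962, minus strand). Annotated antisense genes overlap H1f0, H1fx, H2afy and H3f3a. The kit kept strand, but the strand setting of the counting was not given in the sources used here.

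The 250 bases before the RefSeq start site are shown for H1f0, which changed most, and for the H2A.Z pair, whose members moved apart. RefSeq windows (GRCm38.p6) were found for 8 of the 9 genes. Capitals mark CCAAT and the GC box GGGCGG, searched on both strands.
H1f0 promoter, chr15:79027962-79028211, plus strand: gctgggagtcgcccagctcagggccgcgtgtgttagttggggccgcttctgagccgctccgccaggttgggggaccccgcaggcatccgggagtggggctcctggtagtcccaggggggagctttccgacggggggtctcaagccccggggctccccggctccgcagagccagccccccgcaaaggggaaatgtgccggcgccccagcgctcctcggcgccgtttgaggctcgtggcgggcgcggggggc
H2afz promoter, chr3:137864237-137864486, plus strand: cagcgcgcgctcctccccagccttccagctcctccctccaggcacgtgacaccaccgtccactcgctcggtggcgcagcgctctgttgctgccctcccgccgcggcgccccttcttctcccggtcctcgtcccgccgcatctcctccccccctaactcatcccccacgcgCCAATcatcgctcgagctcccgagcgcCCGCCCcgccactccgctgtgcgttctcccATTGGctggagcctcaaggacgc
H2afv promoter, chr11:6444444-6444693, minus strand: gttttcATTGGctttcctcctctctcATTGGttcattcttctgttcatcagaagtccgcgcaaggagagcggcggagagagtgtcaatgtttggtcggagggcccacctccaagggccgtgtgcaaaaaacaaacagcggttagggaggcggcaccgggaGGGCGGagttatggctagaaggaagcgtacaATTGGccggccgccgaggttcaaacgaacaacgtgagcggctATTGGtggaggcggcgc
The H2afz window held 2 CCAAT matches, at -80 and -23 from the start, and 1 GC box at -53. The H2afv window held 4 CCAAT matches, at -244, -224, -59 and -17, and 1 GC box at -90. The H1f0 window held none of these letters, nor TATAAA, TGACGTCA or the AAACACA element of linker histone genes. For H1f0 the RefSeq start (79028212) lies upstream of the gene start given above (79028450). The bases between these starts were not searched, so the absence holds for the window shown only. For H2afz and H2afv the starts agree. Of 32841 windows of this length, 33.9% held CCAAT and 32.7% held GGGCGG, and the matches are descriptions of sequence only.

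Levels of different genes were compared only per kilobase of exon. On that log2 scale H2afz (11.35) and H3f3b (11.10) had the highest mean over all samples, H3f3a and H1f0 followed at 10.42 and 10.40, and H2afj and H2afy were lowest at 7.20 each. Between the highest and the lowest mean of the 15 STHdhQ111 conditions, H1f0 ranged over 1.20 log2 units (2.30-fold), H1fx over 1.06, H2afx over 0.78 and H2afv over 0.74. The other 5 genes ranged over 0.47 or less, and H2afy over only 0.24.

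With sodium butyrate, 6 of the 9 variants rose against the STHdhQ111 vehicle and none fell, where 37.5% of the 13409 genes tested were called and 19.6% were called higher. A gene was called under an adjusted p of 0.05 in limma, where the adjustment ran over every gene tested. Of the genes expressed at least as highly as the lowest variant, 14.5% were called higher. H1f0 was 11.30, 11.40 and 11.54 in the vehicle samples and 12.19, 12.14 and 12.05 with sodium butyrate. The groups were well apart, and the level rose by 0.71 (1.64-fold, standard error 0.088, adjusted p = 7.3e-08). H1fx rose by 0.59 (standard error 0.126, adjusted p = 3e-04), from 8.40, 8.38 and 8.68 to 8.94, 9.33 and 8.96, again with every treated sample above every vehicle sample. In bulk RNA, a larger share of cells with a high level and a higher level in each cell cannot be told apart. H2afx rose by 0.37 (adjusted p = 0.0011), from 9.28, 9.12 and 9.31 to 9.50, 9.81 and 9.49.

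Both H2A.Z genes and 1 of the H3.3 genes were also higher with sodium butyrate. H2afz was 11.92, 12.07 and 12.19 with vehicle and 12.46, 12.34 and 12.31 with sodium butyrate, a rise of 0.31 (adjusted p = 0.00039). H2afv rose by 0.35 (adjusted p = 0.00073), from 9.13, 9.20 and 9.39 to 9.57, 9.67 and 9.52. H3f3b rose by 0.30 (adjusted p = 4.1e-05), from 12.64, 12.57 and 12.65 to 12.95, 12.90 and 12.93. In none of these 3 genes did the groups overlap. H3f3a, H2afj and H2afy differed by 0.13 (95% interval -0.02 to 0.29), 0.08 (-0.18 to 0.34) and 0.02 (-0.10 to 0.14) and were not called. The median difference was 0.31 over the 9 genes and 0.016 over all genes tested.

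**Figure D1:**
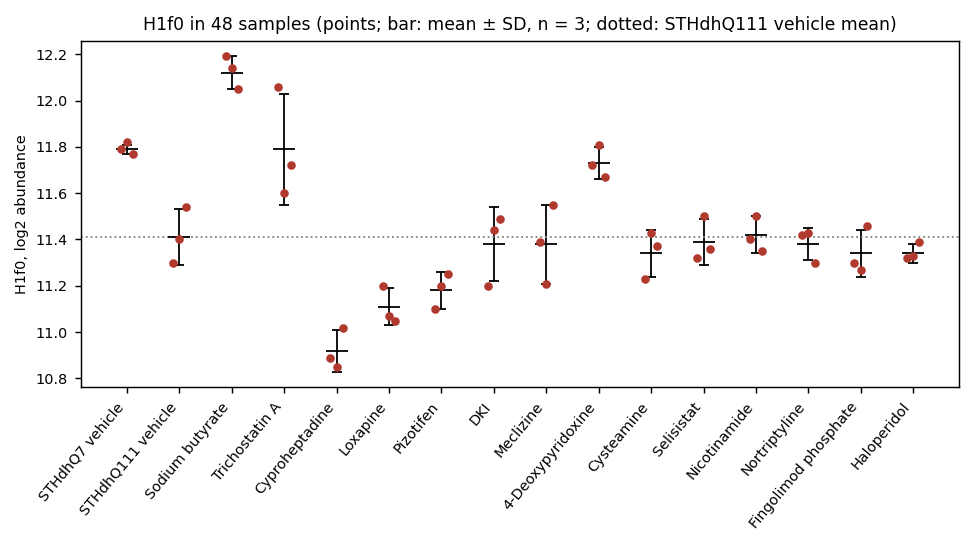
The log2 abundance of H1f0 (y axis) is plotted for the 3 samples (points) of each condition (x axis), with the mean and SD as bars and the STHdhQ111 vehicle mean as a dotted line. Sodium butyrate samples sit between 12.05 and 12.19, and cyproheptadine samples between 10.85 and 11.02, on opposite sides of the vehicle samples.

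With trichostatin A, 2 of the 9 variants were called against the same vehicle samples, both higher, where 13.1% of all genes were called and 6.41% were called higher. H1f0 was 12.06, 11.60 and 11.72, above every vehicle sample, and rose by 0.38 (standard error 0.088, adjusted p = 0.0029 by limma). H2afz was 12.42, 12.27 and 12.24 and rose by 0.25 (adjusted p = 0.011). Both calls leaned on replicate 1 of trichostatin A, the highest sample of each gene, without which the differences were 0.24 (adjusted p = 0.10) and 0.19 (adjusted p = 0.13). The H2afz call was also lost without vehicle replicate 1 (0.17, adjusted p = 0.14) and when only the compared samples were fitted (0.25, adjusted p = 0.11). H1fx (0.29, 95% interval 0.04 to 0.55, adjusted p = 0.12) and H2afx (0.20, 0.02 to 0.37, adjusted p = 0.14) did not pass. The differences of the remaining 5 genes lay between -0.11 for H3f3a and 0.12 for H2afv.

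Set directly against each other, with no vehicle sample involved, sodium butyrate and trichostatin A differed in 4 of the 9 variants, where 23.7% of all genes were called. All 4 were higher with sodium butyrate, against 12.6% of all genes. H1f0 was higher by 0.33 (adjusted p = 0.0056 by limma), H3f3b by 0.21 (adjusted p = 0.0053), H3f3a by 0.25 (adjusted p = 0.016) and H2afv by 0.22 (adjusted p = 0.038). H3f3a, at 12.44, 12.44 and 12.40 against 12.16, 12.14 and 12.24, separated these inhibitors although neither differed from vehicle in the test. After quantile normalization H3f3b (0.09, adjusted p = 0.33) and H3f3a (0.15, adjusted p = 0.18) were not called. For H2afz the difference was 0.06, with a 95% interval of -0.08 to 0.20, and for H1fx 0.30 (0.05 to 0.56, adjusted p = 0.078). Without replicate 2 of trichostatin A, only H3f3b was called, and H1f0 was at 0.23 (adjusted p = 0.092), H3f3a at 0.22 (adjusted p = 0.072) and H2afv at 0.16 (adjusted p = 0.23). Without replicate 1 or replicate 2 of sodium butyrate, H3f3a (0.24 each, adjusted p = 0.055 and 0.054) and H2afv (0.23 and 0.18, adjusted p = 0.07 and 0.18) were not called. The agents were used at 1 mM and 10 nM, so the comparison is between these treatments and not between equal strengths of inhibition. They also differed in their combinations of collection day and time, so compound and combination cannot be told apart here. Low-dose compounds collected with sodium butyrate and with trichostatin A had mean H2afv of 9.45 and 9.27. For H1f0 these means were 11.4 and 11.34, for H3f3a 12.43 and 12.34 and for H3f3b 12.69 and 12.65. Against these compounds, neither H2afv (0.14 and 0.1) nor H3f3a (0 and -0.16) was called with either inhibitor.

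**Figure D2:**
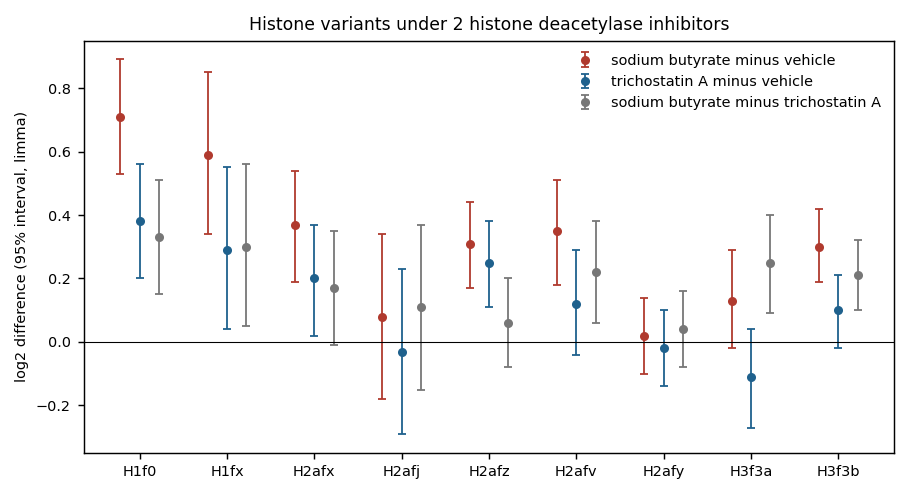
Differences in log2 abundance (y axis) with 95% intervals from limma are plotted for the 9 variants (x axis), for sodium butyrate minus vehicle (red), trichostatin A minus vehicle (blue) and sodium butyrate minus trichostatin A (grey), 3 samples per condition. H1f0 has the largest difference for both inhibitors, 0.71 and 0.38, and H2afy lies near 0 in all 3 comparisons.

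The vehicle samples were not collected at the same times of the 3 collection days as either inhibitor. Compounds at low dose that shared the inhibitor's days and times gave a further control with no vehicle sample, nicotinamide and nortriptyline for sodium butyrate and haloperidol and fingolimod phosphate for trichostatin A. Against them, sodium butyrate raised H1f0 by 0.72, H1fx by 0.51, H2afz by 0.31, H2afx by 0.29 and H3f3b by 0.23, 5 genes called where 30.8% of all genes were called and 17% were called higher. H2afv was not called (0.14, adjusted p = 0.13 by limma) and was at 9.31 to 9.54 in the nicotinamide and nortriptyline samples. Without replicate 2 of sodium butyrate the H2afx difference was 0.17 (adjusted p = 0.13). With trichostatin A, 4 genes were called, all higher, where 14.4% of all genes were called and 8.08% were called higher, namely H1f0 (0.45, adjusted p = 5.9e-05), H2afz (0.30, adjusted p = 0.00033), H1fx (0.34, adjusted p = 0.032) and H2afx (0.23, adjusted p = 0.035). The H1fx and H2afx calls ended without replicate 1 of trichostatin A (0.28 and 0.20, adjusted p = 0.22 and 0.20), and without replicate 3 (0.29 and 0.22, adjusted p = 0.14 and 0.11). They also ended without single fingolimod phosphate or haloperidol samples, at adjusted p between 0.065 and 0.083. The control compounds cannot be taken as inert, since the study found each of them protective in STHdhQ111 cells. Against vehicle, 10.4%, 3.83%, 0% and 0.0597% of all genes were called with nicotinamide, nortriptyline, haloperidol and fingolimod phosphate. Fingolimod phosphate was at 250 nM, above the 10 nM of trichostatin A.

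Other histone genes and the machinery that places variants were measured alongside. Of 66 replication-dependent histone genes in the table, 38 were tested, and 9 rose and 0 fell with sodium butyrate (median difference 0.16, against 0.016 over all genes). This is 23.7% of them, near the 19.6% of all genes called higher, and against the low-dose compounds of the same collection times 5 rose (13.2%, against 17%). The largest were Hist1h2bc (0.70, adjusted p = 0.0011 by limma), Hist1h1c (0.49) and Hist1h2be (0.33). With trichostatin A, 2 rose, Hist1h2bc (0.53) and Hist1h1c (0.42), and 0 fell (median difference 0.07, against 0.004 over all genes), 5.26% where 6.41% of all genes were called higher. With selisistat, an inhibitor of the deacetylase SIRT1, 16 of the 38 were called higher (median difference 0.28), where 0.515% of all genes were called. Without selisistat replicate 2, the sample that stands apart, 0 of the 38 and 0 of all genes were called (median difference 0.19). Messages of replication-dependent histone genes are mostly not polyadenylated, and the libraries were made from poly(A) RNA, so these values cover the polyadenylated part only. Values of the variants, H2afx among them, likewise cover polyadenylated RNA only.

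With sodium butyrate, 17.8% of all genes were called lower, and 27.5% of those expressed at least as highly as the lowest variant. Of 9 genes for H3.3 deposition, 4 fell with sodium butyrate and 0 rose (median difference -0.16). These were Ubn1 (-0.40, adjusted p = 3.3e-08 by limma), Cabin1 (-0.38), Ubn2 (-0.24) and Hira (-0.22), which together form the HIRA complex. With trichostatin A, Ubn1 (-0.21) and Cabin1 (-0.19) fell and the H3 and H4 chaperone gene Asf1a (0.19) rose (median difference -0.10). Of all genes 6.68%, and of those expressed at least as highly as the lowest variant 11.3%, were called lower. Against the low-dose compounds of the same collection times, 0 of the 9 fell and 1 rose with trichostatin A (median difference -0.06). Sodium butyrate against its low-dose compounds gave 4 lower and 1 higher (median difference -0.11). Of 16 genes for H2A.Z exchange, 7 fell and 1 rose with sodium butyrate against vehicle (median difference -0.09). Srcap, the ATPase that deposits H2A.Z, fell by 0.70 (adjusted p = 1.6e-06 by limma) and Epc1 by 0.44, whereas Anp32e, a chaperone that removes H2A.Z, rose by 0.38. With trichostatin A, 5 fell and 0 rose, the largest being Srcap (-0.33), Trrap (-0.27) and Ep400 (-0.22), with the same median difference of -0.09. Against low-dose compounds of the same collection times, 5 fell and 1 rose with sodium butyrate, and 3 fell and 0 rose with trichostatin A. Of all genes, 13.8% and 6.32% were called lower in these comparisons, and 19.1% and 9.94% of those expressed at least as highly as the lowest variant. Falls in this list were not particular to the inhibitors. Against vehicle, 5 fell and 3 rose with cyproheptadine, and 4 and 3 with DKI and meclizine. With loxapine and 4-deoxypyridoxine 4 fell and 1 rose each, and with pizotifen 4 and 0. With nicotinamide, nortriptyline and cysteamine 3 fell and 0 rose each. With fingolimod phosphate 1 fell, and with selisistat and haloperidol 0 were called. Of all genes, 18.2% were called lower with cyproheptadine, 21.9% with DKI, 13.6% with meclizine, 11.8% with loxapine and 11.2% with 4-deoxypyridoxine. The shares were 9.07% with pizotifen, 7.59% with nicotinamide, 5.5% with cysteamine, 3.08% with nortriptyline and 0.0597% with fingolimod phosphate. Of genes expressed at least as highly as the lowest variant, 23.2% were lower with cyproheptadine and 30% with DKI. The 25% of the list with DKI was near its shares. Of 15 general histone chaperones, 2 rose with sodium butyrate, Nap1l1 (0.25) and Rbbp4 (0.11), and Ipo4 fell (-0.18). These are 13.3% and 6.67%, where 19.6% and 17.8% of all genes were called higher and lower. With trichostatin A 0 were called, where 13.1% of all genes were. The median differences were 0.01 with sodium butyrate and -0.02 with trichostatin A.

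Proliferation genes moved in both directions. With sodium butyrate, 5 of 24 rose (20.8%, near the 19.6% of all genes), led by Aurkb (0.35), Birc5 (0.32) and Cdk1 (0.31). Another 3 fell (12.5%, where 17.8% of all genes were called lower), and the median difference was -0.01. Against the low-dose compounds of the same collection times, 9 rose (37.5%, where 17% of all genes were called higher) and 1 fell (median difference 0.08). Of 7 genes for inhibitors of cyclin-dependent kinases, Cdkn1c (0.54) and Cdkn2a (0.42) were the 2 that rose with sodium butyrate against vehicle. Cdkn1a (-0.46) was among the 3 that fell (median difference 0.08). These are 28.6% and 42.9% of a short list, where 19.6% and 17.8% of all genes were called higher and lower. With trichostatin A, Cdk1 alone rose among the proliferation genes (0.20, 4.17% of them) and 0 fell (median difference 0.07). Cdkn1a (-0.58) and Cdkn2b (-0.31) fell, 28.6% of the kinase inhibitor list (median difference -0.10). Of all genes, 6.41% were called higher and 6.68% lower. The part of the cell cycle in the rise of H1f0 was not tested. Of other variants, H2afy2, which encodes macro-H2A2, fell with sodium butyrate (-0.19, adjusted p = 0.017 by limma), and Cenpa, the centromeric H3, was at 0.00.

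The wild-type and mutant lines differed in 5 of the 9 variants with vehicle alone, where 55.8% of all genes were called. STHdhQ7 cells had higher H1f0, at 11.79, 11.82 and 11.77, by 0.38 (adjusted p = 0.00033 by limma). They had higher H2afz, at 12.39, 12.35 and 12.27, by 0.27 (adjusted p = 0.00061). For the H3.3 genes the lines went opposite ways. H3f3a was lower in STHdhQ7 cells by 0.35 (adjusted p = 0.00013), at 11.76, 12.04 and 12.02 against 12.24, 12.27 and 12.37, and H3f3b was higher by 0.19 (adjusted p = 0.0036), at 12.85, 12.73 and 12.85 against 12.64, 12.57 and 12.65. Neither gene's groups overlapped. Within a sample, H3f3a minus H3f3b was -1.09, -0.69 and -0.82 in STHdhQ7 and -0.40, -0.30 and -0.27 in STHdhQ111 cells, a shift of -0.54 (p = 0.1 in an exact two-sided permutation test, which with 3 samples against 3 can go no lower). H2afj was higher by 0.31 in STHdhQ7 cells (adjusted p = 0.037 by limma), a call lost without STHdhQ7 replicate 2 (0.22, adjusted p = 0.20) or 3 (0.32, adjusted p = 0.068) or vehicle replicate 1 (0.24, adjusted p = 0.16) or 2 (0.28, adjusted p = 0.10). H1fx, H2afx, H2afv and H2afy differed by 0.18 (95% interval -0.07 to 0.44), 0.05, 0.01 and -0.03 and were not called.

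**Figure D3:**
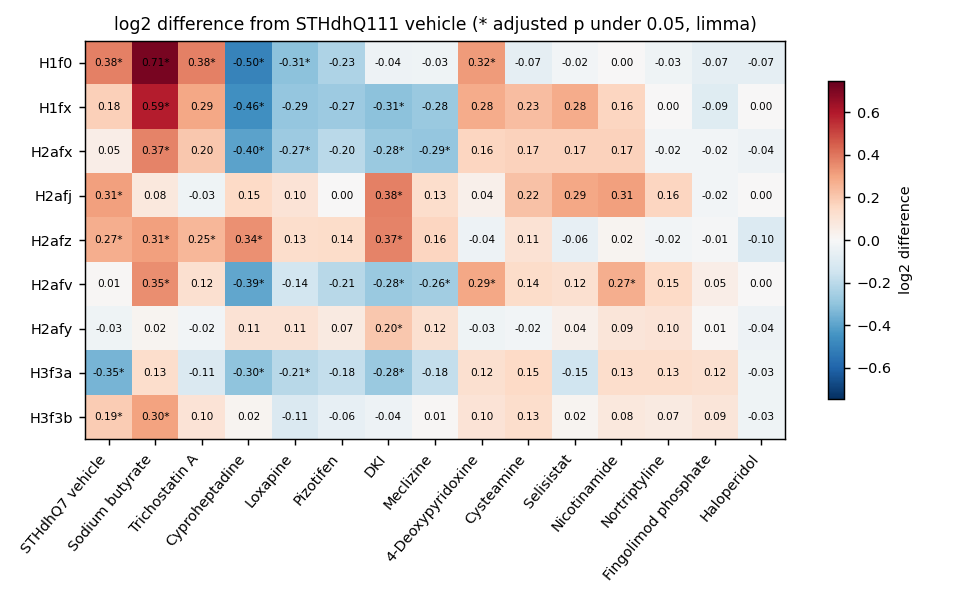
Each cell gives the log2 difference of 1 variant (rows) from the STHdhQ111 vehicle for STHdhQ7 vehicle or 1 compound in STHdhQ111 cells (columns), coloured from blue (lower) to red (higher), with an asterisk where the adjusted p from limma is under 0.05. All columns share the same 3 vehicle samples, and the differences run from -0.50 for H1f0 with cyproheptadine to 0.71 for H1f0 with sodium butyrate.

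Among the 12 other compounds, 21 of 108 combinations of a variant and a compound were called, and cyproheptadine and DKI accounted for 6 and 7 of them. The pooled count is a description. The share of all genes called, given beside each compound, ran from 0% with haloperidol to 42.3% with DKI. Cyproheptadine and DKI samples came from collection days 2 and 3 only, where every other condition had samples on all 3 days. No low-dose compound shared their days and times. With cyproheptadine, an antihistamine that also blocks serotonin receptors, 35.6% of all genes were called. H1f0 was 10.89, 10.85 and 11.02, all below every sample of the other conditions, and fell by 0.50 (adjusted p = 3e-05 by limma). H1fx fell by 0.46 (adjusted p = 0.0044), H2afx by 0.40 (adjusted p = 4e-04), H2afv by 0.39 (adjusted p = 0.00023) and H3f3a by 0.30 (adjusted p = 0.002). H2afz alone rose, by 0.34 (adjusted p = 0.00013), at 12.48, 12.28 and 12.46. Without vehicle replicate 3 the H1fx difference was -0.34 (adjusted p = 0.058).

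With DKI, where 42.3% of all genes were called, H1f0 was not called (-0.04, 95% interval -0.22 to 0.14). H2afz rose by 0.37 (adjusted p = 3e-05 by limma), at 12.50, 12.40 and 12.40, H2afj by 0.38 (adjusted p = 0.016) and H2afy by 0.20 (adjusted p = 0.0069), the only call of macro-H2A1 against the vehicle. H2afx and H2afv each fell by 0.28, H3f3a by 0.28 and H1fx by 0.31 (adjusted p = 0.048). Without vehicle replicate 3, H1fx (-0.19, adjusted p = 0.29), H2afx (-0.23, adjusted p = 0.066) and H2afv (-0.19, adjusted p = 0.083) were not called. H1fx was also lost without each DKI sample in turn (adjusted p between 0.061 and 0.12), H2afj without DKI replicate 1 (0.28, adjusted p = 0.12) or vehicle replicate 1 (0.31, adjusted p = 0.085) or 2 (0.35, adjusted p = 0.058), and H3f3a without DKI replicate 1 (-0.20, adjusted p = 0.052).

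Loxapine lowered 3 variants and meclizine 2, with 21.9% and 26.8% of all genes called, and 11.8% and 13.6% called lower. With loxapine the falls were in H1f0 (-0.31, adjusted p = 0.01 by limma), H2afx (-0.27, adjusted p = 0.023) and H3f3a (-0.21, adjusted p = 0.04). With meclizine they were in H2afx (-0.29) and H2afv (-0.26), both at adjusted p = 0.012. Each of these 5 calls ended without vehicle replicate 3, at -0.24, -0.23 and -0.18 for loxapine (adjusted p = 0.072, 0.10 and 0.15) and at -0.25 and -0.18 for meclizine (adjusted p = 0.066 and 0.12). Without vehicle replicate 1, H2afx was not called with loxapine (-0.25, adjusted p = 0.09) or meclizine (-0.27, adjusted p = 0.053), nor was H3f3a with loxapine (-0.24, adjusted p = 0.063). H3f3a was not called without vehicle replicate 2 either (-0.22, adjusted p = 0.07). H1f0 was lost without loxapine replicate 3 (-0.28, adjusted p = 0.055), H2afx without loxapine replicate 2 or 3 (-0.21 and -0.26, adjusted p = 0.14 and 0.067), H3f3a likewise (-0.22 and -0.17, adjusted p = 0.087 and 0.18), and H2afx without meclizine replicate 3 (-0.22, adjusted p = 0.10).

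Against low-dose compounds of the same collection times, a control added after the data were seen, the counts were higher for loxapine, meclizine and pizotifen, lower for 4-deoxypyridoxine (1 in place of 2) and again 0 for cysteamine, where 0.119% of all genes were called. With loxapine 6 were lower, H2afx and H2afv by 0.35 each, H1fx by 0.37, H3f3a by 0.34, H1f0 by 0.29 and H3f3b by 0.18, where 22.8% of all genes were called and 10.9% were called lower. With meclizine H2afz (0.21) and H2afy (0.14) rose and H2afv (-0.29), H2afx (-0.26) and H3f3a (-0.23) fell, 5 genes where 28.8% were called. With pizotifen, 0 of the 9 were called against vehicle and 3 against this control, H2afz (0.19), H2afv (-0.23) and H3f3a (-0.23), where 17.9% and 17.3% of all genes were called. Each of the 3 calls with pizotifen ended without 1 or more of its own samples, H2afz at 0.17 (adjusted p = 0.10 and 0.11 without replicates 2 and 3), H2afv at -0.20 and -0.23 (adjusted p = 0.11 and 0.063 without replicates 1 and 3) and H3f3a at -0.21 (adjusted p = 0.079 without replicate 1). H2afv was also lost without fingolimod phosphate replicate 3 (-0.19, adjusted p = 0.06). With meclizine, H2afy was lost without each meclizine sample in turn (0.12 to 0.15, adjusted p between 0.066 and 0.17) and without fingolimod phosphate replicate 1 or haloperidol replicate 2 or 3 (adjusted p between 0.065 and 0.089), H2afx without replicate 3 (-0.19, adjusted p = 0.12) and H3f3a without replicate 2 (-0.20, adjusted p = 0.053). With loxapine, H1fx was lost without replicate 2 (-0.31, adjusted p = 0.10) or 3 (-0.34, adjusted p = 0.073). Cyproheptadine and pizotifen are related tricyclic compounds, with a thiophene ring in pizotifen, and were given at different doses. H1f0 differed from vehicle by -0.50 with cyproheptadine at 10 µM and by -0.23 (adjusted p = 0.061 by limma) with pizotifen at 5 µM.

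4-Deoxypyridoxine, an antimetabolite of vitamin B6, raised H1f0 by 0.32 (adjusted p = 0.0083 by limma), to 11.72, 11.81 and 11.67, and H2afv by 0.29 (adjusted p = 0.0075), with 20.1% of all genes called and 8.93% called higher. The H1f0 groups did not overlap, and against the compounds of the same collection times H1f0 was higher by 0.33 (adjusted p = 0.004, and 0.055 without 4-deoxypyridoxine replicate 2, at 0.29) and H2afv by 0.09 (adjusted p = 0.48), where 10.6% were called. Against vehicle, H1f0 was lost without vehicle replicate 1 (0.26, adjusted p = 0.079) or 4-deoxypyridoxine replicate 2 (0.28, adjusted p = 0.064), and H2afv without vehicle replicate 1 (0.23, adjusted p = 0.081) or 4-deoxypyridoxine replicate 1 (0.24, adjusted p = 0.066). With nicotinamide at 0.5 nM H2afv was higher by 0.27 (adjusted p = 0.025), with 10.4% of all genes called and 2.82% called higher, and this call ended without vehicle replicate 1 (0.21, adjusted p = 0.20) or 2 (0.25, adjusted p = 0.10) or nicotinamide replicate 1 (0.26, adjusted p = 0.065) or 2 (0.26, adjusted p = 0.11). Nicotinamide and vehicle differed in their combinations of collection day and time, so compound and combination cannot be told apart in this comparison. For nortriptyline, collected at the same times as nicotinamide, the H2afv difference was 0.15 (adjusted p = 0.33 by limma). With cysteamine, nortriptyline, selisistat, fingolimod phosphate and haloperidol, 0 of the 9 variants were called, where 7.83%, 3.83%, 0.515%, 0.0597% and 0% of all genes were.

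The study set cyproheptadine, loxapine and pizotifen apart as Group A and DKI and meclizine as Group B from their metabolite profiles. In a comparison added after the data were seen, only H1f0 of the 9 variants differed between them, where 41.3% of all genes were called. It was lower in Group A by 0.31 (95% interval -0.42 to -0.19, adjusted p = 2.7e-05 by limma), at means of 11.07 and 11.38. For H2afx, H2afv and H3f3a the differences were -0.01, 0.03 and -0.01, with 95% intervals within -0.12 to 0.13.

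H1fx, H2afx and H2afv had similar orders of the conditions. Over the 15 condition means of STHdhQ111 cells, with 3 samples each, Pearson's r was 0.98 for H1fx and H2afx, 0.95 for H2afx and H2afv, and 0.93 for H1fx and H2afv. These genes lie on chromosomes 6, 9 and 11. The points share 1 normalization and come from 1 cell line, and the r values are descriptions. In each of the 3 genes sodium butyrate had the highest mean and cyproheptadine the lowest, and the 5 lowest means were those of cyproheptadine, DKI, meclizine, loxapine and pizotifen. Within that low end, and through most of the order, neighbouring conditions overlapped. For H1fx, the fingolimod phosphate samples (8.30 to 8.57) lay above the pizotifen samples (8.16 to 8.28), the next in order. Replicate 2 of selisistat was high in all 3, at 9.21, 9.67 and 9.63, against 8.57 and 8.52, 9.31 and 9.24, and 9.28 and 9.17 in the other samples of that condition.

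**Figure D4:**
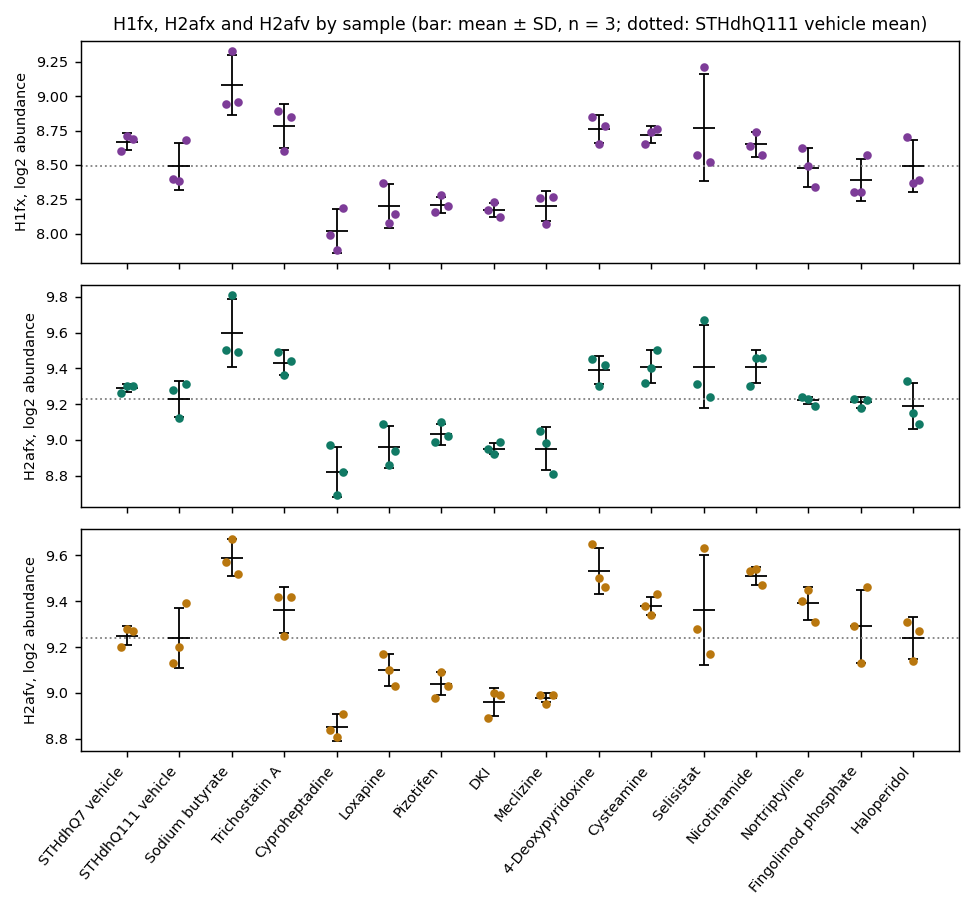
The log2 abundance (y axes) of H1fx, H2afx and H2afv is plotted for the 3 samples (points) of each condition (x axis), with bars for the mean and SD and the STHdhQ111 vehicle mean dotted. Cyproheptadine has the lowest mean in each panel (8.02, 8.82 and 8.85) and sodium butyrate the highest (9.08, 9.60 and 9.59).

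The H2A.Z genes did not move together, with r of -0.44 between H2afz and H2afv over these conditions. Within a sample, H2afz minus H2afv was 2.79, 2.87 and 2.80 with vehicle, 3.64, 3.47 and 3.55 with cyproheptadine, and 3.60, 3.40 and 3.41 with DKI. Cyproheptadine and DKI samples all lay above the vehicle samples, with shifts of 0.73 and 0.65 (p = 0.1 each in the exact two-sided permutation test, its lowest value here). Shifts within a sample, here and for the H3.3 genes, carry no adjustment for collection day. With meclizine the difference was 3.26, 3.25 and 3.22, a shift of 0.42, and with pizotifen and loxapine the shifts were 0.34 and 0.27. With 4-deoxypyridoxine it was lower than with vehicle, at 2.42, 2.53 and 2.51, a shift of -0.33, and the shifts with nicotinamide (-0.26), selisistat (-0.18) and nortriptyline (-0.17) had the same sign. Against the samples of nicotinamide and nortriptyline, which shared its collection times (2.47 to 2.69), the shift with 4-deoxypyridoxine was -0.12. With sodium butyrate both H2A.Z genes rose against vehicle, and the difference was 2.89, 2.67 and 2.79. Against the same low-dose compounds, where only H2afz was called, the shift was 0.17.

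H3f3a minus H3f3b was -0.61, -0.59 and -0.74 with cyproheptadine, a shift of -0.32 from vehicle, and -0.65, -0.42 and -0.61 with DKI, a shift of -0.24, with all of these samples below those of vehicle. With trichostatin A the shift was -0.21 and with sodium butyrate -0.17, and with haloperidol, 4-deoxypyridoxine and cysteamine it was within 0.02 of 0. H3f3a had its lowest mean in STHdhQ7 cells (11.94) and its highest with cysteamine (12.44), whereas H3f3b was highest with sodium butyrate (12.92), whose samples lay above those of STHdhQ7 cells (12.81), the next in order.

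**Figure D5:**
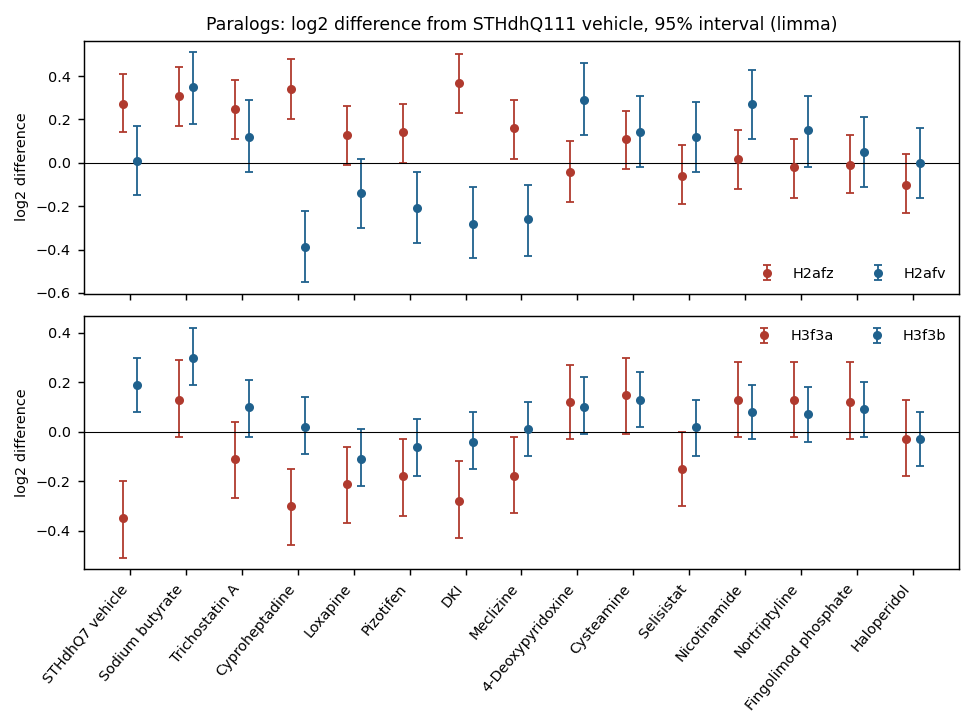
Differences in log2 abundance from the STHdhQ111 vehicle (y axes) with 95% intervals from limma are plotted for each condition (x axis), for H2afz (red) and H2afv (blue) above and for H3f3a (red) and H3f3b (blue) below. H2afz and H2afv lie on opposite sides of 0 with cyproheptadine (0.34 and -0.39) and DKI (0.37 and -0.28).

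H2afz had its highest means with DKI (12.43), cyproheptadine (12.40) and sodium butyrate (12.37), whose samples overlapped, and its lowest with haloperidol (11.96). H2afj and H2afy showed the narrowest orders, in which every pair of neighbouring conditions overlapped.

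Of 9936 genes whose mean was 6 or more, those most like each variant over the 15 condition means were named by Pearson's r. For H1f0 they were Hadh (0.947), a mitochondrial fatty acid oxidation enzyme, Clybl (0.941) and Stac2 (0.934). H1fx and H2afx were each other's nearest gene (0.984), with Pnkd (0.961) and Foxp4 (0.959) next for H1fx and Foxp4 (0.967) and 3010026O09Rik (0.961) for H2afx. For H2afv they were Ddah2 (0.981), Pdlim4 (0.975) and 3010026O09Rik (0.974). For H2afz they included Rraga (0.924) and Sh3bgrl2 (0.923). H2afy was closest to Fcf1 (0.939), Gar1 (0.921) and Ddx49 (0.916), all with roles in making ribosomes. H3f3a was closest to Pdp1 (0.969), Paics (0.951), a purine synthesis enzyme, and Ifitm2 (0.943), and H3f3b to Ndufv2 (0.924), a complex I subunit, Atp5o (0.905), an ATP synthase subunit, and Blvrb (0.900). H2afj was closest to Sac3d1 (0.911), Mrpl38 (0.875) and Psmg3 (0.872). The genes named depend on the measure, since the order was by the highest of many r values over few conditions.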

How the data were processed

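RNA-Seq was analysed in 48 samples, 3 in each of 16 conditions, grouped by the labels. Labels do not say whether samples of a condition were separate cultures, so p-values measure the spread between these samples. The authors trimmed single-end reads of poly(A) RNA with Trimmomatic 0.36 and quantified them with RSEM against GRCm38.p5 transcripts. The deposited table holds 1 normalized value per gene and sample, read as log2 from its range (-2.34 to 18.62). Its transformation is not given in the sources used here. Genes of low value hardly vary in it, so their differences are understated. It holds no counts, so depth is unknown and count models were not used.

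In limma 3.58.1 (R 4.3.3), terms for 16 conditions and for the day of collection were fitted, with a trend on abundance, to 13409 genes that have a symbol and reach a mean of 1 (30 residual degrees of freedom). Two-sided p-values of each comparison were adjusted over these genes (Benjamini-Hochberg), with calls under 0.05. Levels per kilobase subtract log2 of the merged exon length (GENCODE annotation of GRCm38). Text names all 9 variants, the 3 called genes of largest change per list with either inhibitor, and the 3 genes most like each variant by condition means with the collection day removed, of which 1 for H2afz is not reported here. The 9 genes, the lists and the comparisons were chosen with earlier results of these data known. Residuals of samples that share a replicate number had a mean correlation of -0.0487, and 9 of 120 pairs of conditions were over 0.1. For samples of the same collection day the mean correlation was -0.055. The replicate number equals the collection day except in replicate 1 of cyproheptadine and of DKI, so it mostly stands for the day already fitted. No pairing beyond the day was fitted. Figures used matplotlib 3.10.9 in Python 3.11.15, and the fit was tested on simulated data.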

Additional observations from a re-analysis of the deposited data

How the results depend on the processing

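Of 39 called differences of the variants from vehicle, between the inhibitors and between Groups A and B, 39 kept their direction under every alternative run and 15 were also called under every one, with 546 of 609 alternatives keeping the call. Of 15 further calls of the other compounds against low-dose compounds of the same collection times, 15 kept their direction and 7 were called under every alternative. The alternatives were other filters on low values, other terms for day, time or replicate number, only the compared samples, other scalings, no trend on abundance, and each sample left out in turn. The count of variants called with trichostatin A was 2, and 4 against the slot-matched control, and between 0 and 2 with 1 sample left out. When only the compared samples were fitted it stayed at 2, with H1fx called (0.29, adjusted p = 0.043) and H2afz lost. Between sodium butyrate and trichostatin A the count was 4, and 2 after quantile normalization, which lost H3f3a (0.15, adjusted p = 0.18 by limma) and H3f3b (0.09, adjusted p = 0.33), and between 1 and 4 with 1 sample left out. The cause was not tested. For Group A against Group B the count was 1, 2 when only the compared samples were fitted, and between 1 and 2 with 1 sample left out, the second gene being H2afj, which was added without DKI replicate 2. Without a minimum mean, H2afj in STHdhQ7 cells (0.31, adjusted p = 0.056), H3f3a with loxapine (-0.21, adjusted p = 0.059), H1fx with DKI (-0.31, adjusted p = 0.078), H2afv between the inhibitors (0.22, adjusted p = 0.054), and H1fx and H2afx with trichostatin A against the slot-matched control (0.34 and 0.23, adjusted p = 0.052 and 0.053) were not called. H1fx with DKI was also not called with a term for collection time, after rescaling by the median of ratios or without a trend on abundance (adjusted p = 0.057, 0.051 and 0.053). When only the compared samples were fitted, H2afy (0.18, adjusted p = 0.068) and H3f3a (-0.28, adjusted p = 0.078) with DKI and H3f3b in STHdhQ7 cells (0.19, adjusted p = 0.051) were not called either. The replicate number equals the collection day except in replicate 1 of cyproheptadine and of DKI, so a block by number repeats nearly the same fit. With it the counts were 6 for sodium butyrate, 2 for trichostatin A, 4 between them and 5 for STHdhQ7. They were 21 for the 12 other compounds, 9 for the 2 inhibitors against the slot-matched controls and 1 for Group A against Group B. Each equals the count reported, which was nearly fixed in advance by that overlap. Differences too small to be called could change sign, such as H2afy with sodium butyrate (-0.02 to 0.07). With 3 samples per condition and unknown depth, differences under the intervals given could not be resolved.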
